A study of Mus musculus and blank sample with 91 samples.

Results

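The bacteria described here were the members of the order Bacteroidales that the deposited taxonomy placed outside the family Prevotellaceae. They were followed in the feces of mice with experimental autoimmune encephalomyelitis (EAE), a mouse model of multiple sclerosis. The members were the amplicon sequence variants (ASVs, the exact sequences into which 16S rRNA gene reads are resolved) whose order was Bacteroidales and whose family was any other than Prevotellaceae. This rule gave 48 of 2295 ASVs. They held 190258 of the 5612448 counts, or 3.39%, and were found in 52 of 88 samples. By genus, 39 were named Muribaculum (family Muribaculaceae), 7 Barnesiella (family Porphyromonadaceae), 1 was placed in Porphyromonadaceae without a genus and 1 in Bacteroidales without a family. The same order also held 104 Prevotellaceae ASVs.

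All mice were female, of the strain C57BL/6 in the labels and C57BL/6J in the study's methods, and were bought at 8 weeks of age. Naive mice received nothing, CFA mice received Complete Freund's adjuvant alone, and EAE mice received the myelin peptide MOG35-55 in the same adjuvant together with pertussis toxin. Feces of 6 mice per treatment were sequenced before any treatment (−2 dpi, days relative to immunization) and again at 8, 14, 19 and finally 29 dpi. The EAE group of 14 dpi has 5 mice, and so does the CFA group of 29 dpi, because the library of CFA mouse 548 from that day holds no counts and could not be used. EAE mice carry other numbers in the labels from 14 dpi on than before, so whether they are the same animals on early and late days is not settled by the labels. Mice were caged in small groups by treatment and the labels do not give the cage, so an effect of cage and an effect of treatment cannot be told apart. Totals ran from 9202 to 102437 counts per sample with a median of 64586. The lowest totals were in EAE mice, where EAE mouse 555 at 8 dpi had 9202 counts spread over 4 ASVs. A count of 0 allows up to 0.0326% of a sample at that depth and 0.00293% at the highest. The 95% Wilson intervals of single-sample percents of Barnesiella reached 0.359 percentage points from the value at most, and those of Muribaculum 0.283. These intervals and limits describe counting error and nothing else, because reads copied by PCR do not count molecules independently.

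Bacteroidales are Gram-negative, strictly anaerobic bacteria of the gut that live largely on polysaccharides from food and from host mucus. Muribaculaceae are among the families most typical of the mouse gut, and Muribaculum intestinale is the species after which the family was named. Barnesiella is a related gut anaerobe, and Prevotellaceae, the sister family set aside by the rule, hold the genus Prevotella of plant polysaccharide degraders. In 16S surveys the short amplified stretch is the only evidence for such names, and very similar stretches are hard to place.

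That limit bore on Barnesiella directly, so the sequences come before the levels. Both primers were still present in the deposited ASVs, and the primers are mixtures with 4 ambiguous positions, so the same amplified stretch can appear as several ASVs that differ only within the primer. With the primers cut off, the 48 members reduced to 9 distinct sequences, numbered here by total count among the 501 of the whole table. The most abundant, S3, was 421 bases long. It was the sequence of 5 ASVs named Barnesiella intestinihominis and, letter for letter, of 29 ASVs named Prevotella, in a different family. The Barnesiella-named ASVs held 18.0% of the 781009 counts of S3 and 99.0% of all counts of the genus Barnesiella. The Prevotella-named ASVs on S3 held 96.0% of all counts of Prevotella. The deposited names therefore divided one sequence between a member and a non-member family, and the label Barnesiella is used below only as the name the table gives. Of the 501 sequences, 31 carried more than 1 genus name and 8 more than 1 family name.

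The name followed the reverse primer. S3 occurred with 8 of the 9 forms of the reverse primer, called R1 to R9, and with 5 forms of the forward primer. Barnesiella-named ASVs lay in 3 of the 8, namely R1, R3 and R4. All 42 samples that held S3 with one of these forms had the name, and 0 of the other 34 samples with S3 did. Within a form the split between names was narrow across samples. Of the S3 counts with R1, the Barnesiella-named ASV A38 took 14.2% to 18.1% (median 16.3%, 22 samples). With R3, the pair A43 and A44 took 53.5% to 59.5% (median 56.8%, 15 samples). With R4, the pair A52 and A76 took 38.5% to 48.3% (median 46.1%, 13 samples). A43 and A44 were found together in all 15 of their samples, and A52 and A76 in all 13 of theirs. Over the 42 samples the Barnesiella-named share of S3 ranged from 4.63% to 59.5% with a median of 30.7%. How much Barnesiella a sample appeared to hold thus moved with which forms of the primer S3 carried there as well as with the amount of S3.

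**Figure D1:**
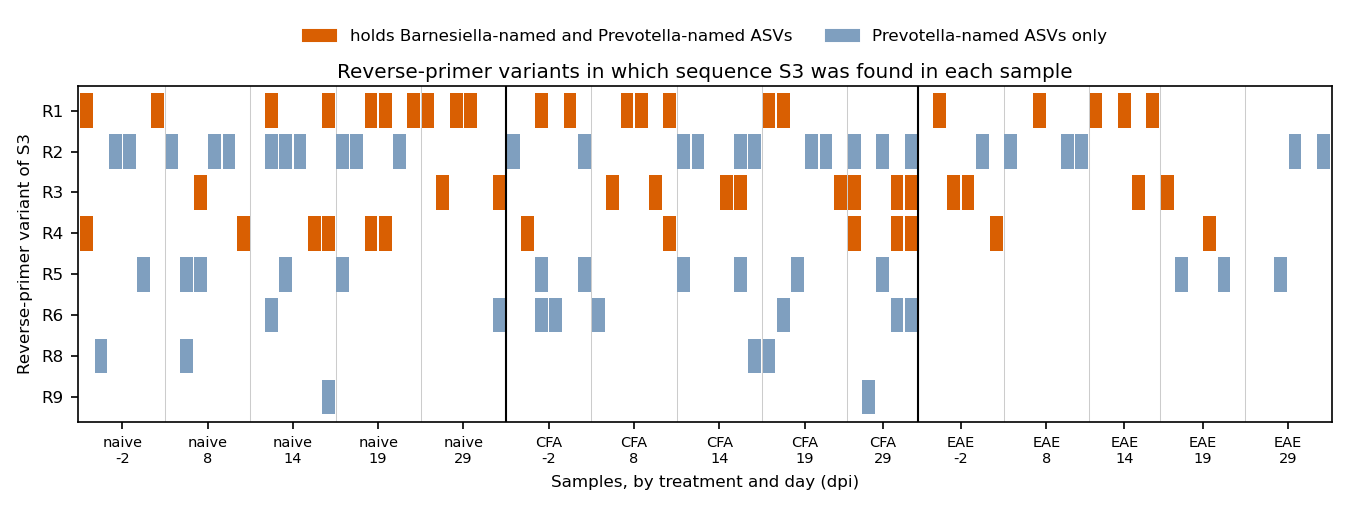
Reverse-primer forms (vertical axis) with which sequence S3 was found in each of the 88 samples (horizontal axis, ordered by treatment and dpi), orange where the form held Barnesiella-named and Prevotella-named ASVs and blue where it held Prevotella-named ASVs only. Orange appears in R1, R3 and R4 alone, most samples have a single form, and the 6 EAE samples of 29 dpi have no orange cell.

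Each sample showed few of these forms for S3. S3 had 1 reverse form in 54 samples, 2 in 15, 3 in 6 and 4 in 1, and it was at 0 in 12. All taxa together showed all 9 forms in 74 samples, so the forms themselves were present in the same libraries. The forms R6, R8 and R9 of S3 were seen in 0 of 29 EAE samples, and R8 and R9 were rare in the other treatments too. The part of the primer forms in any difference between groups was not tested beyond merging them, which is given below.

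Barnesiella-named ASVs were found in 15 of 30 naive, 16 of 29 CFA and 13 of 29 EAE samples. Where found, B. intestinihominis never fell below 0.917% of the counts, so samples either held it plainly or showed 0. In naive mice 2 of 6 held the genus at −2 dpi (4.87% in mouse 558 and 2.71% in mouse 563), and 5 of 6 held it at 29 dpi, at 1.70% to 5.35% (2.69% ± 1.97, SD, n = 6). No naive mouse apart from mouse 563 held it on all 5 days. In CFA mice 5 of 6 held it at 8 dpi, at 2.80% to 9.50% (5.31% ± 3.65, n = 6). At 29 dpi 3 of the 5 CFA mice had 10.1%, 10.8% and 11.3% and the others 0.

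In EAE mice the number with Barnesiella varied between days. At −2 dpi, before immunization, 4 of 6 held Barnesiella, at 3.25% to 14.2% (5.17% ± 5.46, n = 6), and the highest percent of the genus in the data was in EAE mouse 555 at that time. At 8 dpi only EAE mouse 553 held it, at 2.48%. At 14 dpi 4 of 5 held it at 1.36% to 4.79% (1.98% ± 1.76, n = 5). At 19 dpi EAE mouse 588 had 12.3%, EAE mouse 593 had 9.72% and the others 0. At 29 dpi B. intestinihominis was at 0 in all 6 EAE mice. What remained of the genus that day was 1.44% in EAE mouse 591, in an ASV that carries another sequence described below, and 3 counts in EAE mouse 595.

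**Figure D2:**
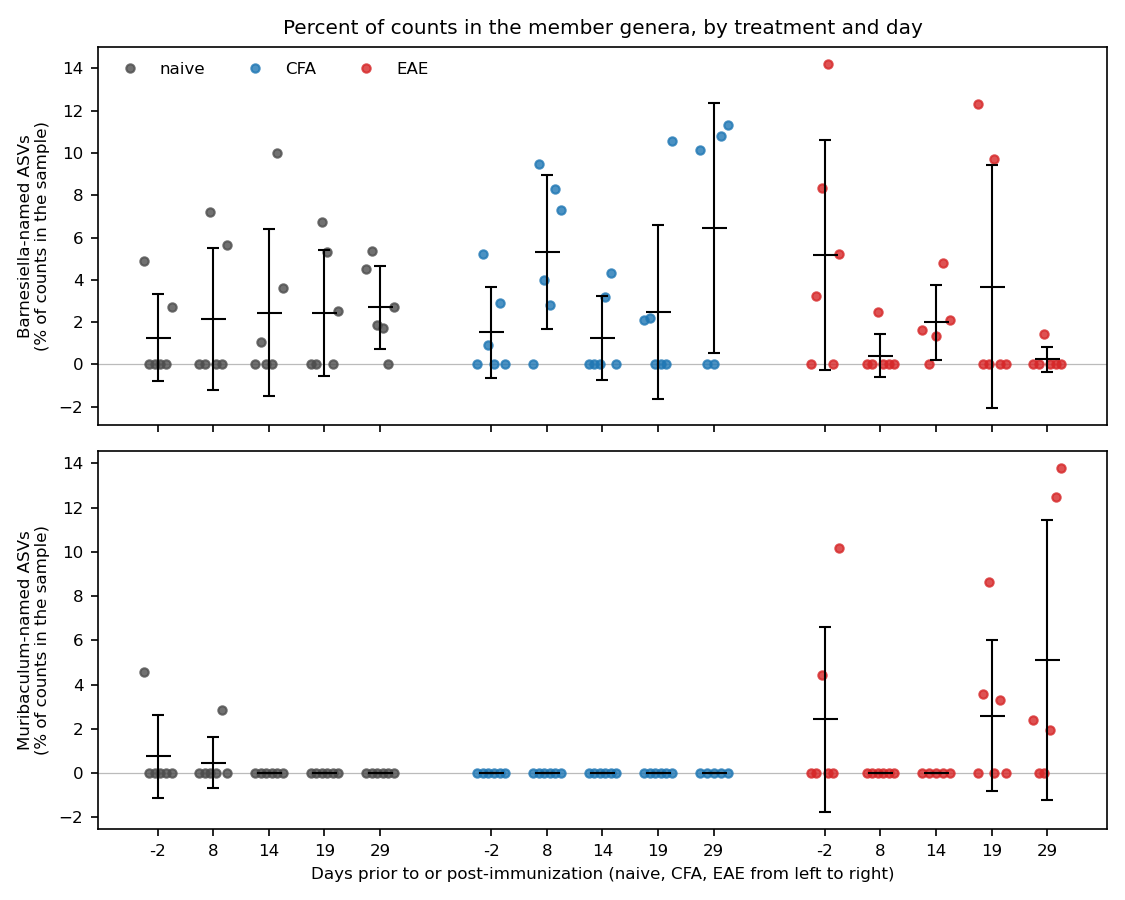
Percent of a sample's counts (vertical axes) in Barnesiella-named ASVs (upper panel) and Muribaculum-named ASVs (lower panel) by dpi in naive, CFA and EAE mice, 1 point per sample, with horizontal ticks for the group mean and bars for ± SD (bars reach below 0 because many samples are at 0). Both genera are at 0 in many samples of every group, and Muribaculum is at 0 in all 29 CFA samples and reaches 13.8% in EAE mice at 29 dpi.

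Compared without pairing, these differences did not pass the tests. edgeR's quasi-likelihood test on the genus counts called Barnesiella in 0 of 15 comparisons between treatments, with 0 at an unadjusted p under 0.05 and 0 by DESeq2 (lowest adjusted p with edgeR, 0.343). It called 0 of 12 changes since −2 dpi, again with 0 at an unadjusted p under 0.05 and 0 by DESeq2, and 0 of 12 differences between treatments in that change, with 0 at an unadjusted p under 0.05. In paired fits some of these calls differed, and the share of all genera called in those fits was not counted. With the subject number of the sample table as a replicate block, edgeR called the EAE mice lower at 29 than at −2 dpi (adjusted p = 0.0428 against 0.813 unpaired). The change also differed between EAE and CFA mice at 8 dpi (adjusted p = 0.00755 against 0.710), where the mean went from 5.17% to 0.413% in EAE and from 1.51% to 5.31% in CFA mice, and at 29 dpi (0.0385 against 0.472), and between EAE and naive mice at 29 dpi (0.0163 against 0.661). Merging the names on S3 ended all 4 calls, with an adjusted p of 1 for S3 in each of these blocked fits. The change in EAE mice from −2 to 8 dpi was not called with the mouse as a replicate block (adjusted p = 0.635). Paired exact permutation tests of the percents gave p = 0.125 for that change (adjusted p = 0.903) and p = 0.0625 for the change in CFA mice (adjusted p = 0.451). All mice whose percent changed fell in EAE and rose in CFA mice, and the others stayed at 0. Each unadjusted p was thus the lowest that its test could give, so these tests cannot decide the question. The paired calls at 29 dpi also hold only if the sample table's numbers mark the same EAE animals on both days. The exact permutation test of mean percents called 0 of 15 after adjustment over the 65 genera, with 2 at an unadjusted p under 0.05. In EAE/CFA at 8 dpi the means were 0.413% ± 1.01 and 5.31% ± 3.65 (n = 6 each, exact permutation p = 0.0152, adjusted p = 0.197). In EAE/naive at 29 dpi they were 0.241% ± 0.588 and 2.69% ± 1.97 (n = 6 each, exact permutation p = 0.0152, adjusted p = 0.109). In EAE/CFA at 29 dpi they were 0.241% ± 0.588 (n = 6) and 6.45% ± 5.90 (n = 5, exact permutation p = 0.0606, adjusted p = 0.394). The presence of Barnesiella was called by Fisher's exact test in 0 of 15 comparisons, with 0 at an unadjusted p under 0.05. At 29 dpi that test counted EAE mouse 591, whose ASV is not on S3, and EAE mouse 595, with 3 counts, as holding the genus. B. intestinihominis was at 0 in all EAE mice that day, and no test of its presence alone is given. Under edgeR, EAE/CFA at 8 and at 29 dpi each changed when 1 EAE mouse was left out. Without EAE mouse 553 at 8 dpi the adjusted p was 0.0139. Without EAE mouse 591 at 29 dpi, whose Barnesiella-named ASV is not on S3, it was 0.0468. These fits left the EAE group at or near 0, a setting in which edgeR also called a genus held by a single mouse (below). Here several CFA mice held the genus, and how far the setting shaped these calls was not tested. They are therefore given without a conclusion on the level.

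When single ASVs were tested, the same bacteria gave calls in both directions. Only 5 of the 48 members were found in at least 3 samples, and these were the 5 Barnesiella-named ASVs on S3. In edgeR they gave 30 calls in 75 tests, 13 higher and 17 lower in the first-named group (0 calls when the filter of 3 samples was dropped), and in 6 of the 11 comparisons with calls some were higher and some lower. In every one of the 30 calls the ASV was at 0 in all samples of one group, and it had counts in 1 mouse of the other group in 8 calls, 2 mice in 12 and 3 mice in 10. In EAE/naive, A43 and A44 were called higher at 14 dpi and A52 lower, where 5.71% of all ASVs were called in either direction. At 19 dpi A43 and A44 were again called higher and A38 lower (6.33% of ASVs called), and at 29 dpi A38, A43 and A44 were called lower (4.01%). The higher calls at 14 and at 19 dpi each rested on 1 EAE mouse.

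In EAE/CFA, A43, A44 and A52 were called lower at 8 dpi (6.64% of ASVs called) and at 29 dpi (0.617%), where they were held by 3 of 5 CFA mice and 0 of 6 EAE mice. A38 was called higher in EAE/CFA at 14 dpi, in 3 of 5 against 0 of 6 mice (9.26% of ASVs called). At 19 dpi A38 was called lower and A52 higher, the latter in 1 EAE mouse (5.56%). In CFA/naive, which has no EAE mice, A38 was called higher at 8 dpi (5.86% of ASVs called). At 14 dpi A43 and A44 were called higher and A38, A52 and A76 lower (5.25%). At 19 dpi A43 and A44 were called higher and A52 lower (1.39%), and at 29 dpi A52 and A76 were called higher and A38 lower (3.09%).

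Once all ASVs on S3 were added up whatever their name, edgeR called the sequence in 0 of 15 comparisons, with 0 at an unadjusted p under 0.05 and 1 by DESeq2 (EAE/CFA at 29 dpi, adjusted p = 0.0369 with DESeq2 and 0.122 with edgeR). The percents of S3 in EAE and CFA mice did not overlap on 2 days. How many of the 203 sequences were likewise apart was not counted. At 8 dpi EAE mice had 0, 0, 11.2%, 12.1%, 12.3% and 14.1% and CFA mice 14.6%, 17.3%, 17.7%, 21.7%, 25.3% and 33.6%. The EAE mice at 0 that day, 551 and 555, had libraries of 17439 and 9202 counts without any Bacteroidales. The group means were 8.28% ± 6.48 and 21.7% ± 6.94 (n = 6 each, exact permutation p = 0.00216, adjusted p = 0.0879 over 203 sequences). At 29 dpi EAE mice had 0 in 3 mice, 4.39%, 5.99% and 8.91%, and CFA mice 11.7% to 27.1% (3.22% ± 3.81, n = 6, and 22.1% ± 6.45, n = 5, exact permutation p = 0.00216, adjusted p = 0.220). At 19 dpi the means were 10.4% ± 9.22 and 19.8% ± 4.56 (n = 6 each, exact permutation p = 0.0498). The exact permutation test called 0 of 15 comparisons of S3 after adjustment, with these 3 at an unadjusted p under 0.05. Before immunization S3 held 15.5% ± 8.69 in EAE, 15.8% ± 3.47 in CFA and 16.6% ± 3.84 in naive mice (n = 6 each).

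**Figure D3:**
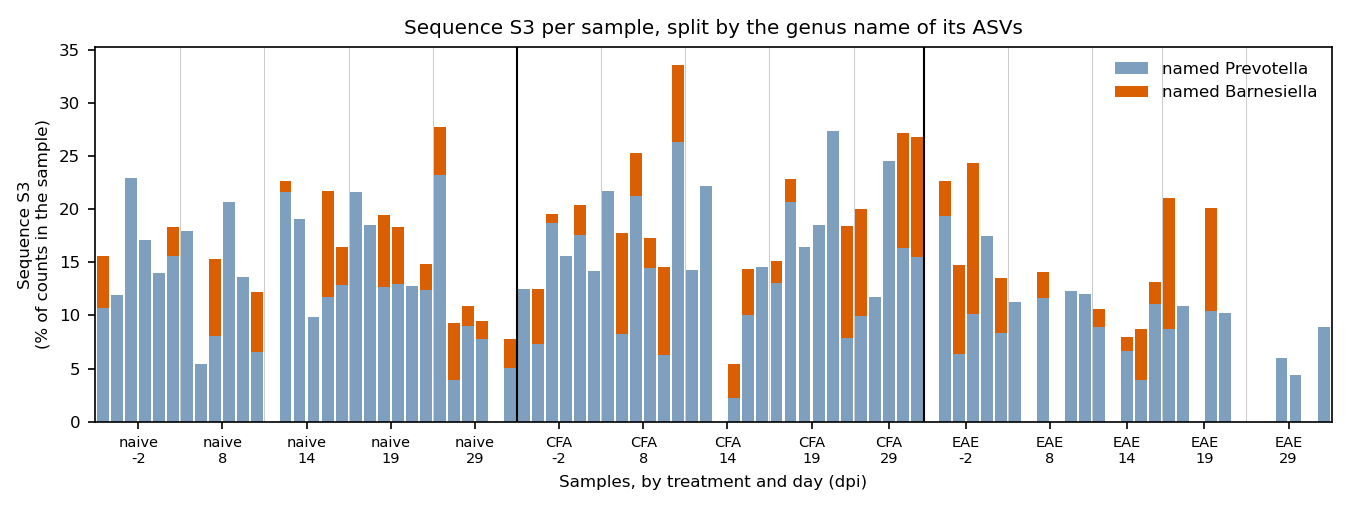
Sequence S3 as a percent of counts (vertical axis) in each sample (horizontal axis, ordered by treatment and dpi), with the bar split into Prevotella-named (blue) and Barnesiella-named (orange) ASVs. The orange part varies from 0 to more than the blue part between neighbouring samples, while S3 itself is at 0 in 12 samples, and at 29 dpi it reaches 8.91% at most in EAE mice against 11.7% to 27.1% in CFA mice.

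Muribaculum, the second member genus, was at 0 in most samples and plentiful in a few. It was found in 11 of 88 samples, of which 2 were naive, 0 CFA and 9 EAE, and its lowest level where found was 1.95% (1680 counts). Naive mouse 558 had 4.56% at −2 dpi and naive mouse 562 had 2.86% at 8 dpi. EAE mice 553 and 557 had 4.45% and 10.2% at −2 dpi, so the genus was present in the EAE group before immunization. At 8 and 14 dpi it was at 0 in all EAE samples. At 19 dpi EAE mice 589, 591 and 594 had 3.58%, 8.64% and 3.32%. At 29 dpi EAE mice 588, 593, 594 and 595 had 2.43%, 1.95%, 12.5% and 13.8%. The 2 groups of control mice were at 0 in every sample at 14, 19 and 29 dpi.

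The labels number EAE mice from 588 on from 14 dpi, while the deposited sample table gives them the numbers 550 to 557 of the earlier days. On the table's numbering, which the labels do not settle, 1 of the 2 EAE mice with Muribaculum at −2 dpi held it again at 19 dpi and the other again at 29 dpi. EAE mouse 594 of the labels held it on both later days.

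At 19 dpi the mean of Muribaculum was 2.59% ± 3.41 in EAE mice (n = 6) against 0 of 6 naive and 0 of 6 CFA mice with any count. Against a floor of 3 counts per library that is at least 620-fold higher than in naive and at least 420-fold higher than in CFA mice. By the same measure EAE mice were already at least 519-fold above CFA mice at −2 dpi, before immunization, a difference that edgeR did not call (adjusted p = 0.0603) and DESeq2 did (adjusted p = 0.00200). At 19 dpi edgeR called both differences (adjusted p = 0.0365 for EAE/naive, where 6.15% of the 65 genera were called, and 0.0290 for EAE/CFA, where 10.8% were). At 29 dpi the mean was 5.11% ± 6.32 (n = 6), at least 1427-fold higher than in naive and at least 1255-fold higher than in CFA mice. edgeR again called both (adjusted p = 0.0193 for EAE/naive, with 9.23% of genera called, and 0.0340 for EAE/CFA, with 7.69%).

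Exact tests over the mice did not call these differences, and EAE mice at 0 overlapped with the controls on both days. Given which mice held the genus, at most 4 in any comparison, neither exact test could reach an unadjusted p under 0.05. Their outcome therefore cannot decide whether the genus differed. The exact permutation test of mean percents gave p = 0.0606 (adjusted p = 0.328) for EAE/naive and p = 0.152 (adjusted p = 0.579) for EAE/CFA at 29 dpi, and p = 0.182 for each comparison at 19 dpi. It called Muribaculum in 0 of 15 comparisons, with 0 at an unadjusted p under 0.05. Fisher's exact test of presence gave p = 0.0606 for 4 of 6 EAE mice against 0 of 6 naive mice (adjusted p = 0.563), and likewise called 0 of 15 with 0 at an unadjusted p under 0.05. Leaving out each mouse of the 2 groups in turn, edgeR's call for EAE/naive at 29 dpi held in all 12 fits (adjusted p, 0.0139 to 0.0472). The call for EAE/naive at 19 dpi was lost in 9 of 12 (0.0413 to 0.0773), that for EAE/CFA at 19 dpi in 6 of 12 (0.0254 to 0.0611, lost without any one of the CFA mice), and that for EAE/CFA at 29 dpi in 5 of 11 (0.0271 to 0.0841, likewise).

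The remaining calls of Muribaculum each rested on 1 naive mouse. It was called lower in CFA/naive at −2 dpi, before treatment (adjusted p = 0.0422, 7.69% of genera called), where naive mouse 558 alone held it. It was called lower in CFA/naive (adjusted p = 0.0408, 21.5% of genera called) and in EAE/naive (adjusted p = 0.0438, 12.3% called) at 8 dpi, where naive mouse 562 alone held it. Without that mouse the adjusted p of each was 1. The same test thus called a genus held by 1 of 6 mice against 0 of 6.

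Of the 12 changes since −2 dpi, edgeR called 1 for Muribaculum. It was lower in EAE mice at 8 dpi than at −2 dpi (2.44% mean at −2 dpi, 0 of 6 mice at 8 dpi, adjusted p = 0.0441, 6.15% of genera called), and the call was lost with the mouse as a replicate block (adjusted p = 0.635). With the subject number of the sample table as a replicate block, the genus was called lower in EAE mice at 14 dpi (adjusted p = 0.0158 against 0.0570 unpaired), while the sequences that made up the genus in these mice were not (S29, adjusted p = 0.470 and S55, 0.662). The share of all genera called in that blocked fit was not counted. The difference between EAE and naive mice in the change from −2 to 29 dpi was also called (adjusted p = 0.0469, 6.15% of genera called). It was lost with the subject as a replicate block (adjusted p = 1) and in 17 of 24 fits that left out 1 mouse, where the adjusted p reached 1.00 without naive mouse 558 at −2 dpi.

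The 39 Muribaculum ASVs were mostly primer variants too, and 26 were found in 1 sample and 13 in 2, so none entered the test of single ASVs. Without primers they came from 5 sequences, of which S29, S55 and S56 held nearly all counts. S29 (421 bases, 16 ASVs) had 27441 counts and S55 (13 ASVs) had 11118. These were found in the same 9 samples, differed by 1 mismatch (99.8% identity) and shared a reverse primer form in all 9. The ratio of S55 to S29 lay between 0.213 and 0.528 with a median of 0.429. S56 was 420 bases long and 89.8% identical to S29, so it was as far from S29 as S3 was (89.3%). It again carried names from 2 families, with 6 ASVs named Muribaculum and 1 named Barnesiella, which is the ASV of EAE mouse 591 at 29 dpi.

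S56 was found in 5 of 88 samples, and all 5 were EAE mice at 29 dpi. EAE mice 588, 591, 593, 594 and 595 had 2.43%, 1.44%, 1.95%, 2.75% and 3.87%, and EAE mouse 589 had 0. The mean of 2.07% was at least 578-fold above the floor of the naive mice and at least 509-fold above that of the CFA mice. Adding up its ASVs by sequence thus joined 4 mice counted as Muribaculum with 1 counted as Barnesiella. No test is given for S56, because it was found in no other group and so entered the set of tested sequences only through the EAE mice of 29 dpi.

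S29 had another course. It was in naive mouse 558 at −2 dpi (3.27%) and naive mouse 562 at 8 dpi (2.15%), in EAE mice 553 and 557 at −2 dpi (3.67% and 6.93%), in 3 EAE mice at 19 dpi (2.32%, 2.34% and 5.88%) and in 2 at 29 dpi (6.73% and 7.30%). The Muribaculum of 19 dpi was therefore S29 and S55 alone, while at 29 dpi EAE mice 594 and 595 held S29, S55 and S56 and EAE mice 588 and 593 held S56 alone. At 19 dpi edgeR called S29 in EAE/naive (adjusted p = 0.0263), where the share of all sequences called was not counted. That day it also called S29 (adjusted p = 0.0286) and S55 (adjusted p = 0.0431) in EAE/CFA, a comparison in which 14.8% of sequences were called. At 29 dpi it called S29 and S55 in EAE/naive (adjusted p = 0.0339 each), where 36.9% of the 203 sequences were called.

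**Figure D4:**
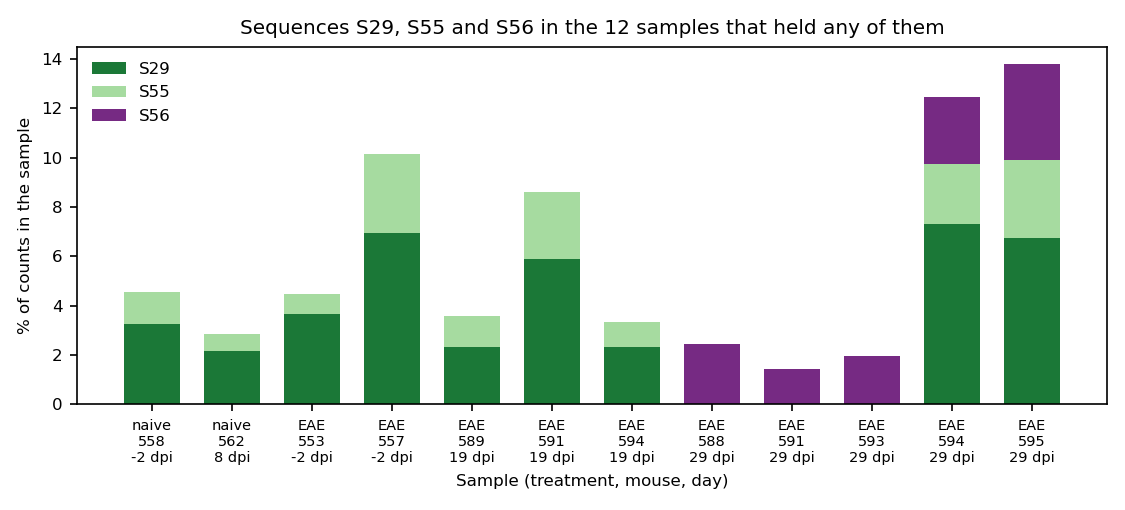
Percent of counts (vertical axis) in sequences S29, S55 and S56 in the 12 samples that held any of them (horizontal axis, by treatment, mouse number of the labels and dpi), 1 stacked bar per sample. S55 accompanies S29 in 9 samples, and S56 is seen only in 5 EAE mice at 29 dpi, at 1.44% to 3.87%.

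The other member ASVs were each confined to 1 sample. The ASV placed in Porphyromonadaceae without a genus had 12 counts in EAE mouse 595 at 29 dpi, and the ASV placed in Bacteroidales without a family had 3 counts in EAE mouse 550 at 8 dpi.

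Added together, the members made up a median of 16.0% of a sample's Bacteroidales counts over the 80 samples with any, with medians of 12.0% in naive, 11.7% in CFA and 24.6% in EAE mice. These totals are given without a test, since they inherit the split of S3 between names. In EAE mice the mean of all members was 7.61% ± 7.29 at −2 dpi, 0.415% ± 1.01 at 8 dpi, 1.98% ± 1.76 at 14 dpi (n = 5), 6.26% ± 4.67 at 19 dpi and 5.36% ± 6.11 at 29 dpi (n = 6 otherwise). Prevotellaceae, the rest of the order, had means of 11.4% ± 5.65 at −2 dpi and 3.22% ± 3.81 at 29 dpi in the EAE groups. For that family edgeR called 0 of 12 changes since −2 dpi and 0 of 15 comparisons between treatments. In naive mice the member means stayed between 2.02% and 2.69% on all days, and in CFA mice between 1.26% and 6.45%. Members outnumbered Prevotellaceae in 15 samples, and in 3 of these, EAE mouse 591 at 19 dpi and EAE mice 588 and 594 at 29 dpi, Prevotellaceae were at 0. No Bacteroidales were found at all in 8 samples (2 naive, 1 CFA and 5 EAE). Some of these 8 were shallow and narrow libraries, with totals from 9202 to 83415 counts and between 4 and 150 ASVs, and the part of depth in them was not tested.

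Clinical scores, which grade paralysis, and body weights were deposited for each sample. Among the 6 EAE mice of 19 dpi Muribaculum had a Pearson r of −0.74 with the score (exact permutation p = 0.117, adjusted p = 0.580) and a Spearman rho of −0.56 (exact permutation p = 0.267, adjusted p = 0.758). When the 2 mice with the most extreme percents were dropped, r was 0.44, so its sign rested on those mice. With body weight r was −0.47 (exact permutation p = 0.358). At 29 dpi r was 0.35 with the score (exact permutation p = 0.5) and 0.67 with body weight (exact permutation p = 0.108), and the latter became −0.73 without the 2 farthest mice. None of the 134 relations computed over genera, days and measures passed adjustment. Barnesiella was found in fewer than 3 of the 6 mice on both days, and at 14 dpi only 5 EAE mice were sequenced, fewer than the 6 required, so no relation was computed for it.

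As a description, the genera whose percents followed Muribaculum most closely over the 88 samples were Turicibacter (Spearman rho 0.37), Romboutsia (0.35) and Peptococcus-rc4-4 (0.32), while rho with Prevotella was −0.28. For Barnesiella the closest were Butyricicoccus (0.26), which was found in 3 samples, Ruminococcaceae_UCG-013 (0.22) and Intestinimonas/Colidextribacter (0.21). All these values share each sample's total as denominator and its depth, and correlations of this size between genera at 0 in many samples are given as a description only.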

How the data were processed

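Fecal 16S rRNA gene amplicons were sequenced by the authors. They truncated and filtered the reads, inferred and merged ASVs with DADA2, removed chimeras by consensus, and named ASVs against several databases (Silva, GTDB, RefSeq and Greengenes) with curation by hand; software versions are not given in the sources used here, and the study's methods date the taxonomy references without numbering them. The deposited table holds ASV counts, not normalized. The clinical score and the body weight in g were taken as deposited by the authors. Water controls were not analysed here. Of the deposited columns, 0 were left unmapped.

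Counts were summed by genus, family and sequence after both primers were cut off (17 and 21 bases, found in 2274 ASVs). Features of each of these ranks, and single ASVs, entered the test if found in 3 samples or more; edgeR 4.0.16 in R 4.3.3 was used (TMMwsp factors from genus counts, quasi-likelihood test, all 15 groups of treatment and day in one fit, Benjamini-Hochberg adjustment over all features of a rank, threshold 0.05). Percents were compared by two-sided exact permutation tests of the means and presence by two-sided Fisher's exact tests (SciPy 1.17.1). With 6 against 6 mice there are 924 regroupings. The tests were first tested on simulated data with known changes. The mouse numbers pair naive and CFA samples across days, because a number in the labels marks the same animal. For EAE mice the labels and the sample table differ in the number for 17 samples, and in 0 scores and 0 weights. A group at 0 was set to 3 counts per library for fold changes.

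The text names every genus of the members, their ASVs and sequences by number, Prevotellaceae and the 3 genera most alike each main genus in Spearman rho. The alternatives were DESeq2 1.42.0 (size factors of type poscounts), totals alone for scaling, no filter, only the samples of a day, 2 low samples left out, each sample left out in turn, mouse or subject as replicate block, centred log ratios (pseudocount 0.5), rarefaction to 9202 counts and merging by sequence. Members, lists and tests were chosen with earlier results of these data known. p-values measure the spread between samples of mice, which share cages. Without a replicate block, the edgeR fit took samples of the same mouse from different days as independent.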

Additional observations from a re-analysis of the deposited data

Results flagged for a closer look

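Percents of Barnesiella, Muribaculum and S3 were tested for outliers in 35 groups. Single samples stood far from the rest in 6 of them, all groups of the member genera. Chance alone marks about 1 in 20 groups of normally distributed values, which groups with many samples at 0 are not. Many samples of these groups were at 0, and where all others are, a single mouse with the genus is enough. For Barnesiella the flagged samples were CFA mouse 548 at 19 dpi with 10.6%, EAE mouse 553 at 8 dpi with 2.48%, EAE mouse 591 at 29 dpi with 1.44% and naive mouse 562 at 14 dpi with 10.0%. Other mice held the genus in the groups of CFA mouse 548 (2.11% and 2.17%) and naive mouse 562 (1.05% and 3.63%). For Muribaculum the flagged samples were naive mouse 558 at −2 dpi with 4.56% and naive mouse 562 at 8 dpi with 2.86%.

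How far Muribaculum had moved from its level of −2 dpi was not alike in EAE and naive mice at 29 dpi, by edgeR's test of that difference (adjusted p = 0.0469). The same test on sequence S29 alone gave an adjusted p of 0.0334 at 19 dpi and 0.0293 at 29 dpi. With the subject as a replicate block all 3 calls were lost (adjusted p = 1 for Muribaculum, 0.840 for S29 at 19 dpi and 0.839 at 29 dpi). Naive mouse 558 was the only naive mouse with S29 at −2 dpi, and no naive mouse held it at 19 or 29 dpi. Without that mouse the adjusted p for Muribaculum was 1.00.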

How the results depend on the processing

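Between treatments, edgeR gave 7 calls among the member genera, all of Muribaculum. There were 7 with totals alone for scaling, 8 without the filter and 8 with DESeq2 (EAE/CFA at −2 dpi being the added one). Without EAE mouse 555 at 8 dpi and EAE mouse 595 at 19 dpi there were 5. Leaving out naive mouse 562 at 8 dpi ended the calls in EAE/naive and in CFA/naive of that day. Most of the 7 calls were lost in some of the fits that left out 1 mouse of the compared groups. Family calls went from 4 to 8 with DESeq2. Calls of the change since −2 dpi (1 of 24 for genera) were 0 with totals alone, 0 without those 2 samples, 5 without the filter and 5 with DESeq2, and for families 0 became 5 with DESeq2. Calls of the difference between treatments in that change (1 of 24) were 0 with totals alone and 3 without the filter. The 30 calls of single ASVs became 0 without the filter and 0 of 15 once primer variants were merged. The percents gave 0 calls, and 1 as centred log ratios, for Muribaculum in CFA/naive at 14 dpi, where both groups are at 0.

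With the mouse number as a replicate block, 0 of 14 changes were called in place of 1. With the subject number of the sample table as a replicate block, 2 of 6 changes of EAE mice were called in place of 0, for Muribaculum at 14 dpi (adjusted p = 0.0158 against 0.0570) and Barnesiella at 29 dpi (0.0428 against 0.813), and 3 differences of change in place of 1. These were Barnesiella in EAE/naive at 29 dpi (0.0163 against 0.661), in EAE/CFA at 8 dpi (0.00755 against 0.710) and in EAE/CFA at 29 dpi (0.0385 against 0.472). The cause of these shifts was not tested. The block also ended the call of this kind for Muribaculum (adjusted p = 1) and both for S29 (0.840 and 0.839). It changed no other call among the member genera. The shares of all genera or families called were counted for the main fits only, not for the block or the other settings. Leaving out samples, merging by sequence for percents and presence, and the missing filter for changes were chosen after seeing the data. DESeq2 was not run for differences of change, nor the block for single ASVs.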
